A study of Rattus norvegicus with 4 samples.

Results

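Axon guidance ligands and receptors were followed in cultures of olfactory ensheathing cells (OECs), the glia that wrap the axons of the olfactory nerve. The genes were chosen by name: probes whose gene name on the array was a semaphorin (Sema), plexin (Plxn), ephrin (Efna, Efnb), Eph receptor (Epha, Ephb), Slit, Robo, netrin (Ntn) or Unc5 name, or was Nrp1, Nrp2 or Dcc. This gave 90 of 41012 probes, standing for 63 of 35637 genes. The name rule itself used no measured value, but it was set with earlier results of these data known. 2 of the 63 match by their letters alone, since Unc50 and Unc5cl are not netrin receptors, and they are counted but not discussed as guidance genes (Unc5cl had a mean log2 ratio of -0.19 and Unc50 was not tested).

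The cells were OEC cultures from male Fischer rats, all grown by one protocol and given no treatment that the labels name. Flow cytometry on p75, the low-affinity neurotrophin receptor encoded by Ngfr, separated p75High from p75Low cells, with 98% purity in the labels. There were 4 biological replicates, each with both populations on 1 array, p75High in the Cy5 channel and p75Low in the Cy3 channel, with no dye exchanged, so dye and population cannot be told apart. The labels do not give the age of the rats, the number of animals behind a replicate, or whether replicates were separate cultures, so p-values rest on the spread among 4 arrays alone. Before labelling, the cDNA of each population went through a whole-transcriptome PCR. Values below are log2 ratios of p75High over p75Low, so a positive value means a higher signal in p75High cells. Their precision is limited by the number of arrays.

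Guidance molecules steer growing axons and migrating cells by attraction or repulsion. Secreted class 3 semaphorins act through neuropilins, which bind the ligand, and plexins, which carry the signal into the cell; most other semaphorins bind plexins directly. Ephrins are tethered to the membrane and signal to Eph receptor tyrosine kinases on a neighbouring cell and back into their own cell. Slits bind Robo receptors, and netrins bind Dcc, which mediates attraction, and Unc5 receptors, which mediate repulsion. In the olfactory system semaphorins, neuropilins and Slit-Robo pairs are known for sorting olfactory axons on their way to the bulb, a path that OECs line.

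The arrays read these genes through probes of 60 bases, and a selection is printed here 5′ to 3′ as the scanner files list them. It holds the probes of 6 genes with means past 2-fold, and the pair for Ephb2, whose probes gave different ratios. Coordinates are of the rat build rn4, per the file headers. The listed coordinate order, given as the strand, was the same as the RefSeq strand for 70 of the 72 probes that could be compared. The Sema3e probe spans chr4:16525564-16539727 (minus) and the Sema4c probe chr9:35494305-35494364 (minus). The Nrp1 probe spans chr19:58482301-58482792 (plus) and the Nrp2 probe chr9:61457268-61459905 (plus). The Plxna4 probe lies at chr4:59619648-59619707 (minus) and the Plxnb2 probe at chr7:127460796-127460855 (minus). The Ephb2 probes lie at chr5:155540171-155540230 and chr5:155423745-155424720 (both minus), starting at bases 485 and 3029 of the same transcript. Spans longer than the probe itself mean that the probe was placed in pieces. Exon, intron and UTR boundaries were not used here.
Sema3e: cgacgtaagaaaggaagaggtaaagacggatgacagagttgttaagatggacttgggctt
Sema4c: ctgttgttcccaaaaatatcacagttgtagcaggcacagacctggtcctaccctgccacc
Nrp1: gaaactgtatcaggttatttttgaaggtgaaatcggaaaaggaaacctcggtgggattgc
Nrp2: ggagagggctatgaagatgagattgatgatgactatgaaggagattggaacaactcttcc
Plxna4: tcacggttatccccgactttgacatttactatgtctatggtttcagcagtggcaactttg
Plxnb2: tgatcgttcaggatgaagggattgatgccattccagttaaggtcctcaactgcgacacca
Ephb2 (base 485): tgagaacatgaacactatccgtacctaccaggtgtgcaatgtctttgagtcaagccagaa
Ephb2 (base 3029): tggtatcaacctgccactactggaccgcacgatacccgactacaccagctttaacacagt

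The sorted gene behaved as labelled. Ngfr had ratios of 6.07, 6.17, 5.02 and 5.96 on arrays 1 to 4 (mean 5.80 ± 0.53 SD, adjusted p = 0.0262 by limma with Benjamini-Hochberg adjustment over all genes tested). Sox10, a transcription factor of neural crest glia, had a mean of 4.56 ± 1.90 (adjusted p = 0.155). The list of ensheathing and Schwann lineage markers had a median ratio of 0.91 over its 14 genes, 1 of them past the threshold. Microglia and macrophage markers were high in p75Low cells: 13 of 14 were tested, all 13 had negative means, 8 passed the threshold, and their median was -4.56. Their mean log2 level was 13.28 to 13.68 in p75Low and 8.77 to 9.59 in p75High, and all 13 were well above background in both populations on every array. Itgam, the CD11b integrin chain, had a mean of -5.77 and Csf1r, the receptor for colony stimulating factor 1, a mean of -6.08 (adjusted p = 0.0262 for each; the median over its probes gave -0.25 for Csf1r, adjusted p = 0.712). Fibroblast markers (8 of 12 tested, median 0.92, 0 past the threshold) were split, with 4 means above 0, such as Postn at 4.80, and 4 below, such as Col1a2 at -2.71. Endothelial (5 of 7 tested, median 1.15) and epithelial markers (5 of 6 tested, median 0.87) had positive means throughout, with 0 past the threshold in either list. Smooth muscle and pericyte (6 of 8 tested, median 0.18), astrocyte (4 of 7, median 0.16) and neuron markers (6 of 8, median -0.18) also had 0 past the threshold. Any ratio for a guidance gene thus compares populations that also differ in microglia and macrophage markers. The part of any of these marker lists in the results below was not tested. In bulk samples fewer cells of a type and less RNA per cell cannot be told apart. Leaving out any 1 array left no gene past the threshold, Ngfr included (adjusted p from 0.0961 to 0.136 for it).

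No guidance gene passed the threshold. Of 48 guidance genes with a probe above the detection filter, 0 had an adjusted p under 0.05 by limma, against 166 of all 22185 genes tested (0.748%; 69 higher, 0.311%, and 97 lower, 0.437%). At an unadjusted p under 0.05 there were 6 of 48: Sema3e, Sema4c, Plxna3 and Unc5a with higher signal in p75High cells and Sema4b and Nrp1 with lower, where 12.7% of all genes met that mark. The ratio had the same sign on all 4 arrays for 16 guidance genes, 8 in each direction (33.3% against 25.5% of all genes). The median of the 48 mean ratios was 0.01, beside -0.03 for all genes, with 24 means above 0 and 24 below, from -2.75 for Nrp1 to 4.52 for Sema3e. The mean passed 2-fold either way for 12 of 48 (25%, against 32.4% of all genes).

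Ratios of single genes varied widely between arrays. The median SD of a guidance gene's ratio over the 4 arrays was 0.92, beside 1.14 for all genes. On arrays 1 to 4, 19, 13, 17 and 14 of the 48 genes were past 2-fold (39.6%, 27.1%, 35.4% and 29.2%, against 40.8%, 42.4%, 42.8% and 36.6% of all genes). Only Sema3e was past 2-fold on all 4 arrays, 4 genes were on 3 arrays, 14 on 2, 19 on 1 and 10 on none. For 8 genes the ratio was past 2-fold upward on one array and downward on another: Sema3g, Sema4d, Plxnb1, Plxnb2, Plxnd1, Epha1, Robo1 and Unc5b (16.7%, against 23.2% of all genes).

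**Figure D1:**
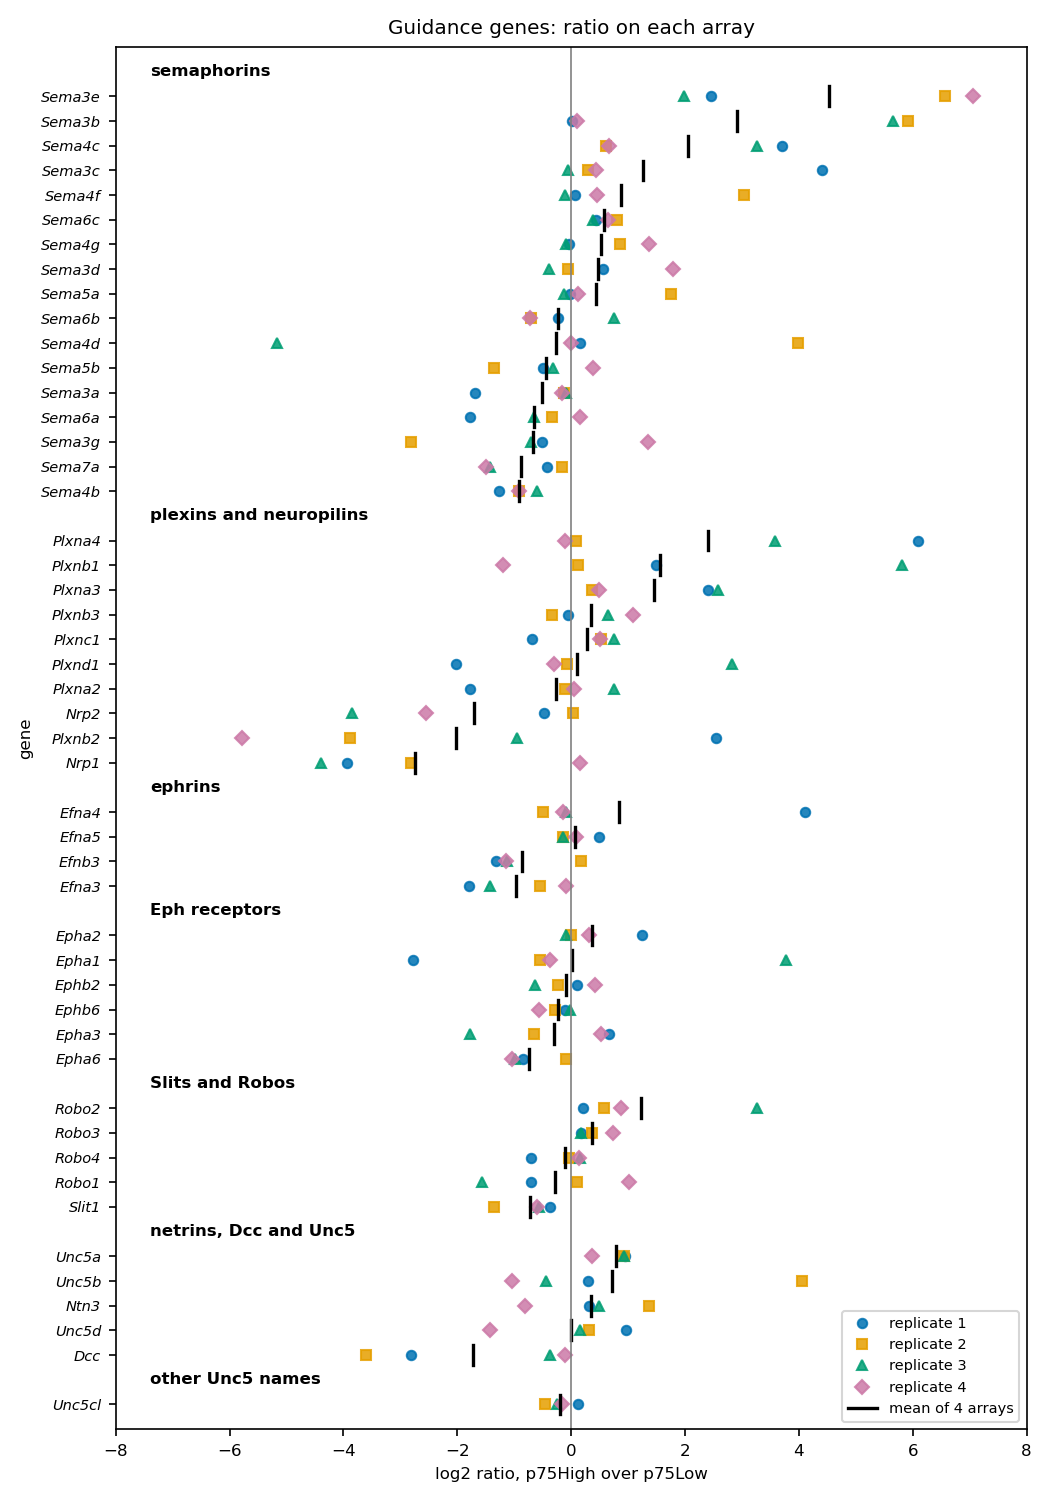
Log2 ratio of p75High over p75Low (x axis) on each of the 4 arrays for the 48 guidance genes tested (y axis), grouped by family, with 1 symbol per replicate and a black bar at the mean. Sema3e lies at or above 1.99 on all 4 arrays and Nrp1 between -4.40 and -2.82 on 3 of them, while genes such as Sema4d and Plxnb2 have arrays on both sides of 0.

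Genes of all 6 families were detected in the cultures. A probe was counted as well above background by the scanner software's own call, and 48 of the 90 probes had that call in both populations on at least 3 arrays (53.3%, against 47.9% of all probes). For 14 probes it was missing in both channels on every array (15.6%, against 14.6%). For 7 genes no probe taken by the name rule was above background on any array: the ligands Slit2 (a probe listed by accession, outside the rule, was detected), Slit3, Efnb1 and Sema4a and the receptors Epha5, Ephb1 and Unc5c. The other 8 genes left untested, among them Ntn1, Sema3f, Sema6d, Efna1, Efnb2, Epha7 and Ephb3, were above background on too few arrays. A call in p75High on at least 3 arrays and in p75Low on none was seen for 4 probes (4.44%, against 1.28% of all probes), of the genes Sema6a, with 2, Robo3 and Ephb6. The reverse pattern was seen for 1 probe of Sema4g (1.11%, against 0.473%).

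**Figure D2:**
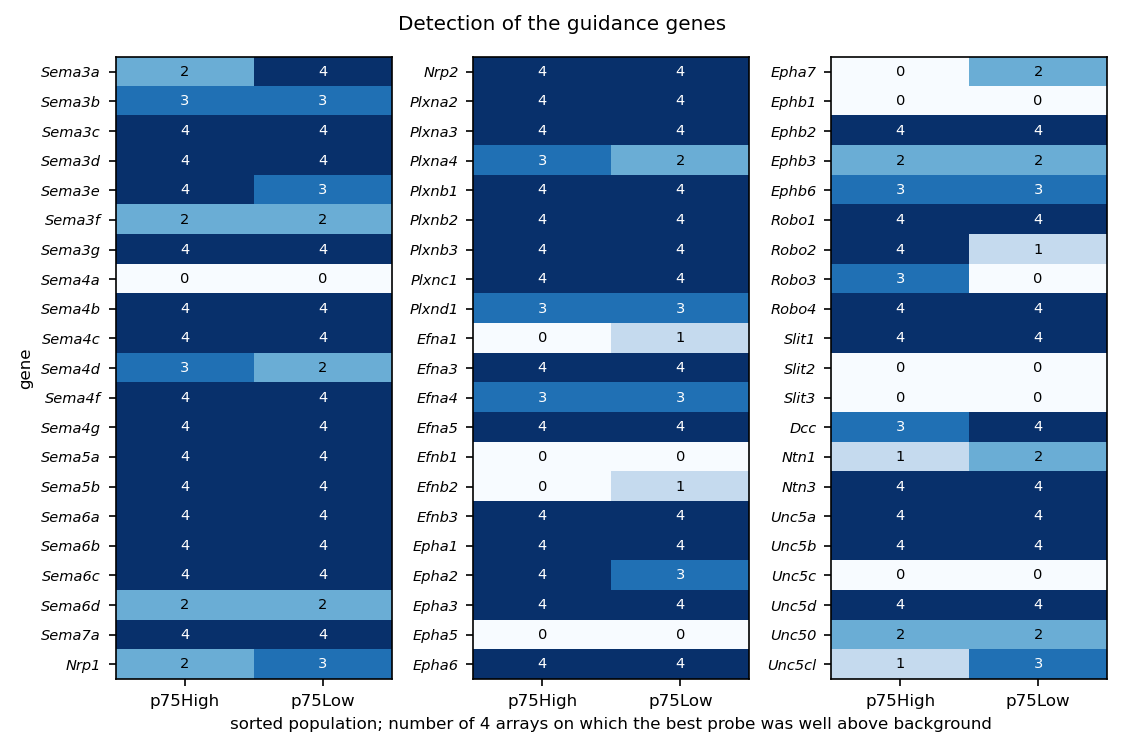
Number of the 4 arrays on which a guidance gene was well above background in p75High (left column) and p75Low (right column), taking for each population the highest number over the gene's probes; rows are the 63 genes by family. Most genes show 4 in both columns, 7 show 0 in both, and Robo2 (4 and 1) and Robo3 (3 and 0) are the most uneven.

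Among the ligands, semaphorins covered both ends of the range (17 of 20 tested, median 0.43, or from -0.01 to 0.63 with 1 array left out, 9 means above 0 and 8 below, 0 past the threshold). Sema3e, a secreted semaphorin that can bind Plxnd1 without a neuropilin, had log2 intensities in p75High cells of 8.75, 13.15, 8.29 and 15.03 on arrays 1 to 4, and in p75Low cells of 6.30, 6.59, 6.30 and 7.97. The p75High values were all above the p75Low values, and the first p75Low value was not above background. The ratios of 2.45, 6.56, 1.99 and 7.06 averaged 4.52 ± 2.66, with a 95% interval of 1.62 to 7.42 on the log2 scale (adjusted p = 0.267). This is 22.9-fold as measured, but no exact fold, because part of the p75Low signal was not above background. Arrays 2 and 4 carried the large ratios, and without 1 array the mean stayed between 3.67 and 5.36.

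Other class 3 ligands had large ratios on some arrays only. Sema3b, also secreted, had ratios of 0.01, 5.91, 5.66 and 0.11 (mean 2.92 ± 3.31, adjusted p = 0.455), so arrays 2 and 3 made the whole difference; on array 4 it was below background in both populations. Sema3c, a ligand of both neuropilins, had ratios of 4.41, 0.30, -0.05 and 0.44 through its brightest probe (mean 1.27 ± 2.10, adjusted p = 0.575). Its second probe, under the filter, gave 0.03, 5.96, 2.09 and -0.14, with large values on different arrays from the first probe. That second probe was above background in p75High on arrays 2 and 3 alone and in p75Low on none. Sema3d (0.47), Sema3a (-0.52), the collapsin that repels sensory axons, and Sema3g (-0.67) had smaller means.

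The transmembrane class 4 semaphorins split by gene. Sema4c, which binds Plxnb2, had log2 intensities of 11.50, 11.29, 12.87 and 9.27 in p75High cells and of 7.79, 10.67, 9.61 and 8.61 in p75Low cells. It was higher in p75High on every array, but the ranges of the populations overlapped. Its ratios of 3.71, 0.62, 3.26 and 0.66 averaged 2.06 ± 1.65 (4.17-fold, adjusted p = 0.363). Sema4b, of the same class, went the other way with little spread: 7.38, 7.49, 7.63 and 8.12 in p75High against 8.64, 8.40, 8.23 and 9.04 in p75Low. These values did not overlap. The ratios were -1.26, -0.91, -0.60 and -0.92 (mean -0.92 ± 0.27, adjusted p = 0.326). Sema4d, known as CD100 on immune cells and a ligand of Plxnb1, had 0.15, 3.98, -5.17 and -0.01, with its largest ratios in opposite directions on arrays 2 and 3 (mean -0.26 ± 3.75). Sema4f had a mean of 0.87 that rested on array 2 at 3.04.

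Class 5, 6 and 7 members had mean ratios within 2-fold through their brightest probes. Sema6c had 4 positive ratios from 0.38 to 0.80 (mean 0.57 ± 0.19, adjusted p = 0.464). Sema7a, a lipid-anchored semaphorin that binds Plxnc1 and integrins, had 4 negative ratios from -1.50 to -0.17 (mean -0.88 ± 0.68, adjusted p = 0.431). Sema5a (0.43), Sema5b (-0.45) and Sema6b (-0.23) had arrays on both sides of 0. Sema6a and Sema4g depended on the probe and are given further on. These and the other members outside the naming rule are given so that every gene tested has a value.

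The plexins and neuropilins, receptors for these ligands, were all tested (10 of 10, median 0.19, or from -0.24 to 0.64 with 1 array left out, 6 means above 0 and 4 below, 0 past the threshold) and held the widest means among the receptors. Both neuropilins were lower in p75High cells on average. Nrp1, the coreceptor for Sema3a and for vascular endothelial growth factor, had log2 intensities of 6.65, 5.99, 6.0 and 6.50 in p75High cells and of 10.58, 8.80, 10.39 and 6.35 in p75Low cells. On arrays 1 to 3 p75Low was far higher. The p75High signal was above background on arrays 1 and 3 alone, and on array 4 neither population was. The ratios of -3.93, -2.82, -4.40 and 0.15 averaged -2.75 ± 2.05 (adjusted p = 0.337), with no exact fold because part of the p75High signal was not above background, and without array 4 the mean was -3.72. Nrp2, the coreceptor for Sema3f, had 6.47, 6.74, 6.34 and 7.23 in p75High and 6.95, 6.70, 10.19 and 9.77 in p75Low. Its difference came from arrays 3 and 4 (ratios -0.47, 0.03, -3.85 and -2.55, mean -1.71 ± 1.81, adjusted p = 0.448). Microglia and macrophage markers were lower in p75High on all 4 arrays, with list medians of -4.59, -5.30, -5.02 and -4.89 on arrays 1 to 4. The Nrp1 ratio of 0.15 on array 4 came from signals not above background in either population, so it does not show equal levels. The part of the microglia and macrophage markers in the neuropilin ratios was not tested.

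Of the A plexins, the signalling partners of neuropilins, Plxna3 had positive ratios throughout. It measured 10.26, 8.39, 10.34 and 8.88 in p75High and 7.85, 8.02, 7.76 and 8.40 in p75Low, ranges that met at their edges. The ratios of 2.41, 0.37, 2.57 and 0.48 averaged 1.46 ± 1.20 (2.74-fold, adjusted p = 0.388). Plxna4 had 6.09, 0.09, 3.58 and -0.11 (mean 2.41 ± 2.98, adjusted p = 0.485), from intensities of 12.44, 8.97, 9.72 and 6.17 in p75High and 6.35, 8.88, 6.14 and 6.28 in p75Low. It was not above background in p75Low on arrays 3 and 4 or in p75High on array 4. Arrays 1 and 3 carried the difference for both Plxna3 and Plxna4. Plxna2 had a mean of -0.27 through its brightest probe, with ratios from -1.78 to 0.75, and of 0.34 through its other kept probe.

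The B plexins, receptors for class 4 semaphorins, gave large ratios without a common direction. Plxnb2 had intensities of 12.83, 9.58, 8.97 and 7.48 in p75High and 10.30, 13.48, 9.94 and 13.25 in p75Low. It was thus higher in p75High on array 1 and lower on the other 3, with ratios of 2.54, -3.89, -0.96 and -5.78 (mean -2.02 ± 3.63, adjusted p = 0.592). Plxnb1 had 1.49, 0.12, 5.81 and -1.19 (mean 1.56 ± 3.04, adjusted p = 0.620), and its second probe gave 0.30, 1.79, 5.76 and -0.29. Both Plxnb1 probes showed array 3 apart from the others. Plxnb3 had a smaller mean (0.34). Outside the B class, Plxnc1 averaged 0.27 through its brightest probe and 1.00 through its other kept probe. Set beside their ligands, Sema4c averaged 2.06 and its receptor Plxnb2 -2.02, while Sema3e averaged 4.52 and its receptor Plxnd1 0.11, with Plxnd1 ratios of -2.02, -0.08, 2.82 and -0.30.

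**Figure D3:**
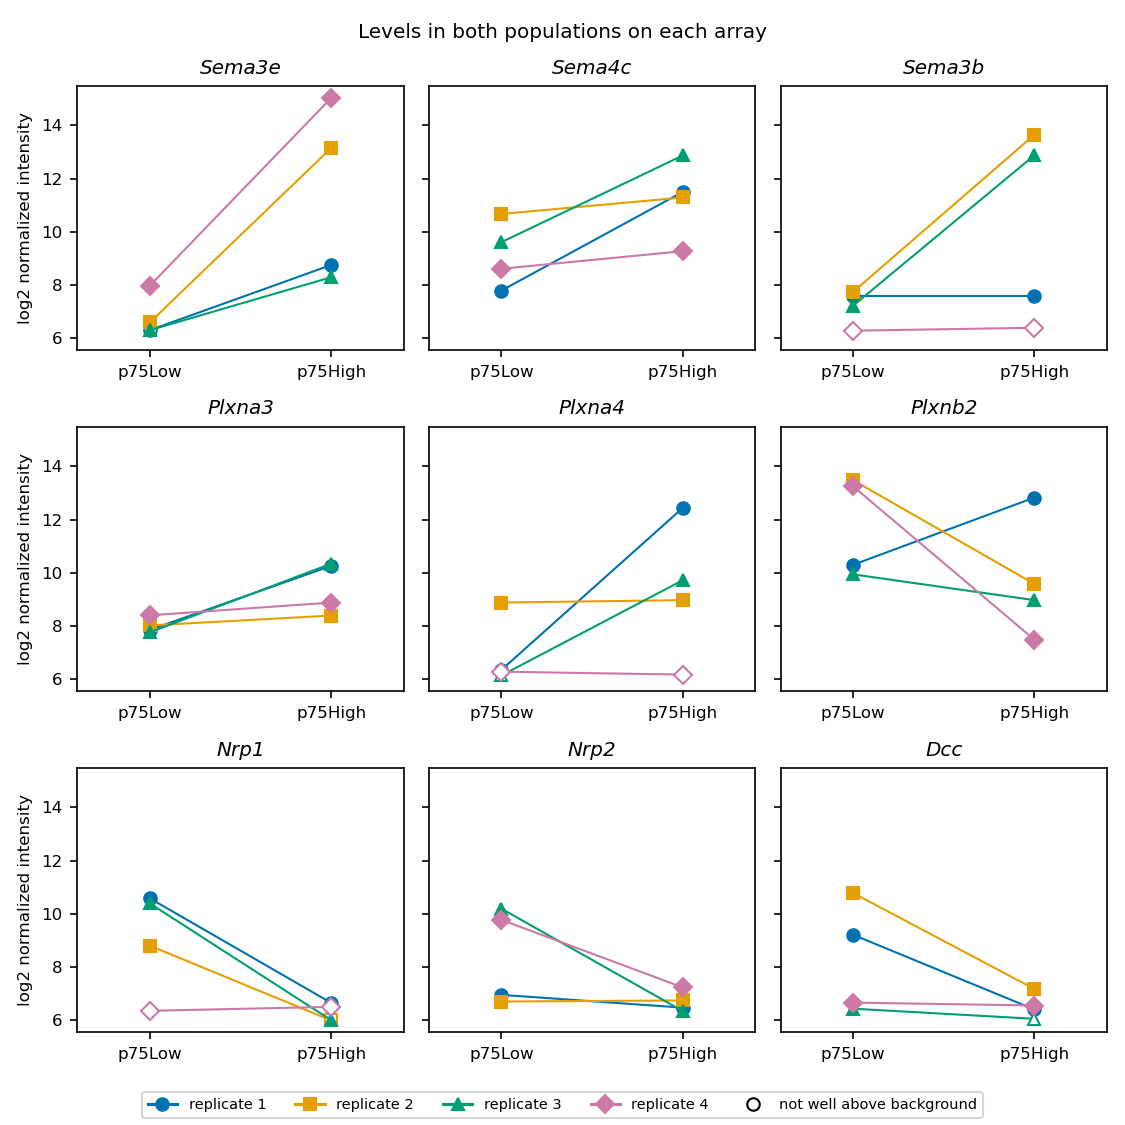
Log2 normalized intensity (y axis) in p75Low and p75High cells (x axis) for 9 guidance genes, each line joining the populations on 1 array; open symbols were not well above background. Sema3e is at most 7.97 in p75Low and at least 8.29 in p75High, Nrp1 is near 6 in p75High on every array, and Plxnb2 has 1 line up and 3 down.

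Ephrins and Eph receptors had narrower ranges of mean ratios than the plexins. For ephrins 4 of 7 were tested (median -0.39, 2 means on each side of 0, 0 past the threshold). Efna3, a lipid-anchored ephrin of the A class, had -1.80, -0.55, -1.43 and -0.09 through its brightest probe (mean -0.97 ± 0.78, adjusted p = 0.427), negative on each array. Efnb3, a transmembrane ephrin known from the spinal cord midline, had intensities of 7.94, 9.27, 8.08 and 9.32 in p75High and 9.25, 9.10, 9.21 and 10.48 in p75Low. Its ratios were -1.32, 0.17, -1.13 and -1.15 (mean -0.86 ± 0.69, adjusted p = 0.440), with array 2 alone at 0.17. Efna4 was near 0 on 3 arrays and 4.11 on array 1 (mean 0.84 ± 2.19, adjusted p = 0.709). Efna5, a repellent in topographic maps, had ratios from -0.15 to 0.48 (mean 0.07 ± 0.30).

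Eph receptors had 6 of 10 tested (median -0.16, 2 means above 0 and 4 below, 0 past the threshold). Epha6 had -0.85, -0.09, -0.99 and -1.04 (mean -0.74 ± 0.44, adjusted p = 0.427), negative on each array. Ephb6, a receptor without kinase activity, was negative on each array through its brightest probe, with a mean of -0.24 ± 0.24, though that probe was above background in p75High on 1 array only. Its other kept probe was positive on each array (0.25, 0.46, 0.26 and 0.30, mean 0.32). That probe was above background in p75High on 3 arrays and in p75Low on none, and 1.22-fold higher in p75High against a floor. Such bounds set the mean of the detected population against the lowest signal well above background on each array, per channel, and stay open to dye bias because the dyes were not exchanged. Epha2 (0.37), Epha3 (-0.31) and Ephb2 (-0.09 by its brightest probe) had arrays on both sides of 0. Epha1 swung from -2.77 on array 1 to 3.77 on array 3 (mean 0.01 ± 2.73), and without array 3 its mean was -1.24. Ephb3 did not reach the filter: it was above background on arrays 1 and 3 alone, where its ratios were 7.11 and 7.17, against -0.11 and 0.15 on the arrays where it was not detected. Ephb3 intensity on those detected arrays was 13.46 and 13.50 in p75High and 6.35 and 6.33 in p75Low.

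Slits and Robos had 5 of 7 genes tested (median -0.11, or from -0.20 to 0.14 with 1 array left out, 2 means above 0 and 3 below, 0 past the threshold). Slit1, the only Slit tested under the name rule, had 7.93, 7.9, 8.50 and 9.18 in p75High and 8.31, 9.26, 9.06 and 9.78 in p75Low. It was lower in p75High on each array, with overlapping ranges (ratios -0.37, -1.36, -0.56 and -0.60, mean -0.72 ± 0.44, adjusted p = 0.433), and its second probe averaged 0.01. Robo2, a main Slit receptor of olfactory axons, had 6.46, 7.08, 9.56 and 7.38 in p75High, above background on all 4 arrays, and 6.25, 6.49, 6.28 and 6.50 in p75Low, above background on 1. Its ratios were 0.20, 0.58, 3.27 and 0.88 (mean 1.23 ± 1.39, adjusted p = 0.478). Robo3, which lowers Slit sensitivity in crossing axons, was above background on 3 arrays in p75High and on none in p75Low (mean 0.36 ± 0.26, adjusted p = 0.607). Set against the floor as for Ephb6, its p75High mean was 1.25-fold higher, again no strict lower bound. Robo1 (-0.29 ± 1.11) and Robo4 (-0.11 ± 0.41), the endothelial Robo, had arrays on both sides of 0. Under median centring in place of loess the Robo4 mean was 0.10 and the family median 0.10, where the median of all genes moved to 0.13.

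Netrins and their receptors had 5 of 7 genes tested (median 0.34, or from -0.10 to 0.72 with 1 array left out, 3 means above 0 and 2 below, 0 past the threshold). Unc5a, a repulsive netrin receptor, had 10.25, 8.73, 9.10 and 10.10 in p75High and 9.30, 7.81, 8.19 and 9.72 in p75Low. Each array put p75High higher, by nearly the same amount on 3 of them (ratios 0.95, 0.92, 0.92 and 0.37, mean 0.79 ± 0.28, 1.73-fold, adjusted p = 0.371). Dcc, the attractive netrin receptor, had 6.40, 7.17, 6.05 and 6.55 in p75High and 9.21, 10.78, 6.43 and 6.66 in p75Low. Its ratios of -2.81, -3.61, -0.38 and -0.11 averaged -1.73 ± 1.75 (adjusted p = 0.433), all negative, with arrays 1 and 2 carrying the difference and p75High not above background on array 3. Unc5b had 0.29, 4.06, -0.45 and -1.04 (mean 0.72 ± 2.29) and Unc5d 0.96, 0.31, 0.15 and -1.43 (mean 0.00 ± 1.01). Ntn3, listed on the array under the older name Ntn2l, had a mean of 0.34 ± 0.89. Ntn1, the founding netrin, was above background in both populations on array 1 alone, with a ratio of 3.87 there.

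Different probes of a gene did not always give one answer. Of 22 genes with several probes, 12 had at least 2 above the filter, and in 5 of them these differed by over 1 in mean log2 ratio. For Sema6a, a transmembrane ligand of Plxna2 and Plxna4, the brightest probe starts at base 2606 of its transcript and gave -1.78, -0.33, -0.66 and 0.15 (mean -0.66 ± 0.82, adjusted p = 0.549). Its probes at bases 6132 and 6612 averaged 1.38 and 1.51 and were above background in p75High on 3 arrays and in p75Low on none. On array 4, where neither population was above background, their ratios were 0.14 and 0.28. Set against the floor over all 4 arrays, p75High was 2.50-fold and 2.66-fold higher, which is no strict lower bound. The Sema6a probes therefore differ in direction. The brightest probe is placed on another transcript record than the probes at bases 6132 and 6612, so their positions are not on one scale. For Sema4g the brightest probe, at base 2231, averaged 0.52 ± 0.71 (adjusted p = 0.595), and the probe at base 4556 gave -1.10, -1.87, -1.32 and -1.87. That second Sema4g probe was above background on all 4 arrays in p75Low and on none in p75High, at least 2.86-fold lower in p75High.

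Ephb2, a receptor for B ephrins, also split by probe. Its probe at base 485, printed above, measured 6.35, 6.73, 7.93 and 8.98 in p75High and 9.57, 9.41, 10.21 and 10.56 in p75Low. The populations did not overlap, with ratios of -3.22, -2.69, -2.28 and -1.59 (mean -2.44 ± 0.69, adjusted p = 0.120 when each probe was tested on its own). Its probe at base 3029 gave 0.10, -0.23, -0.63 and 0.41 (mean -0.09 ± 0.45). Without array 1 or array 2 the probe at base 485 became the brighter one, and Ephb2 then averaged -2.18 or -2.36. For Epha1 the kept probes averaged -1.18, 0.01 and 0.66, and for Efna3 -0.97 and 0.07. The arrays used here do not say which transcripts each probe detected.

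**Figure D4:**
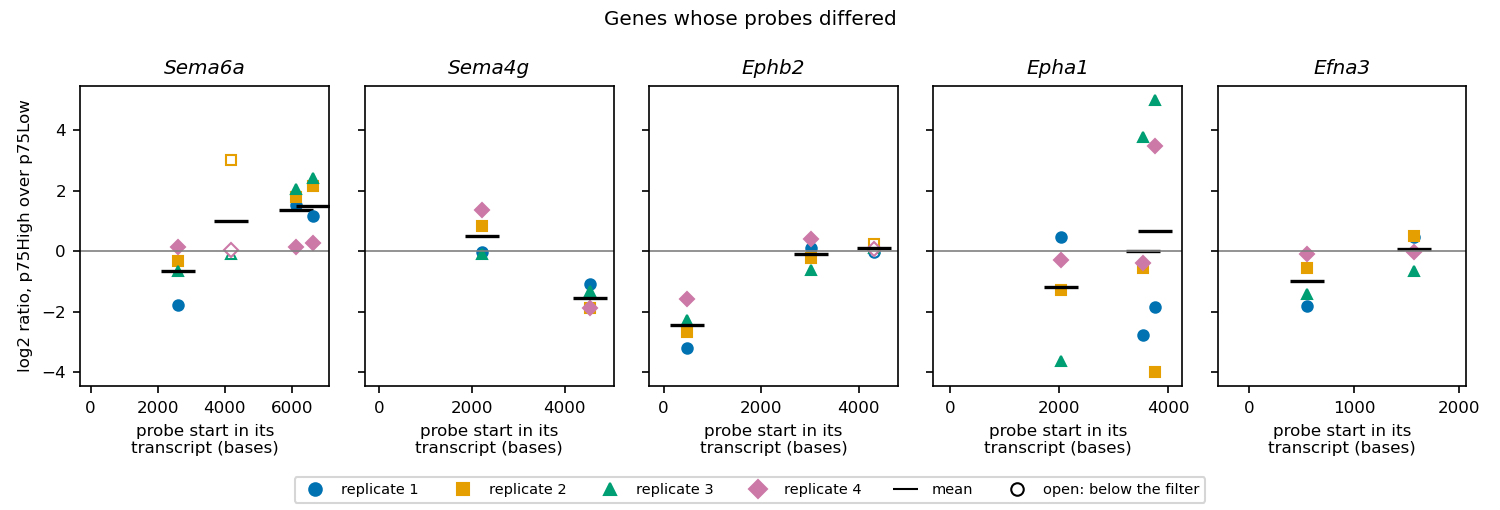
Log2 ratio of p75High over p75Low (y axis) on each array against the start of the probe in its transcript (x axis, bases) for the 5 genes whose kept probes differed by over 1; probes of one gene can be placed on different transcript records, black bars are means and open symbols mark probes below the detection filter. Sema6a averages -0.66 at base 2606 and 1.51 at base 6612, and Ephb2 -2.44 at base 485 and -0.09 at base 3029.

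Genes known to act with these receptors inside or at the cell surface were read from 4 lists, of which 69 of 100 genes were tested and 0 passed the threshold by limma, beside 0.748% of all genes. At an unadjusted p under 0.05 there were 21 of the 69, 8 higher and 13 lower, beside 12.7% of all genes. The semaphorin list (20 of 25 tested) had a median of 0.76, the ephrin list (16 of 22) -0.89, the Slit and netrin list (16 of 31) 0.15 and the cytoskeletal list (17 of 22) -0.51. Chl1, an adhesion molecule of the L1 family, had 7.14, 6.18, 4.15 and 3.27 (mean 5.18 ± 1.78, adjusted p = 0.102). Arhgef12, an exchange factor bound by B plexins, had 5.17, 5.28, 2.55 and 0.97 (mean 3.49 ± 2.10, adjusted p = 0.282). Both were higher in p75High on each array, and Chl1 passed when the pairing of channels was ignored (adjusted p = 0.0266).

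In the ephrin list Vav1, a guanine nucleotide exchange factor of blood cells, had -3.10, -2.71, -4.98 and -4.16 (mean -3.74 ± 1.03, adjusted p = 0.0739), and it passed without background correction (-4.02, adjusted p = 0.0489) and with the scanner's own ratios (-5.42, adjusted p = 0.0357). Kalrn, a neuronal exchange factor, had a mean of 3.09 ± 1.39 (adjusted p = 0.191). In the Slit and netrin list Rgma, a ligand of neogenin, had a mean of -1.73 ± 0.34 (adjusted p = 0.145), and Sdc3, a heparan sulfate proteoglycan, one of 4.27 ± 1.73 (adjusted p = 0.151). Among cytoskeletal effectors Myh9, the heavy chain of nonmuscle myosin IIA, had a mean of -2.39 ± 0.85 (adjusted p = 0.157) and Rac2, the Rac of blood cells, one of -1.82 ± 1.23 (adjusted p = 0.327). Each of these 6 genes had the same sign on all 4 arrays, as did 42% of the 69 partner genes and 25.5% of all genes. These 6, like Chl1 and Arhgef12, were the 2 with the smallest p in each list. A common sign follows in part from that choice. The microglia and macrophage markers moved the same way as Vav1, Rgma, Myh9 and Rac2, and their part in these values was not tested.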

How the data were processed

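Paired p75High (Cy5) and p75Low (Cy3) cDNA was hybridised to 4 Agilent arrays of design 014879, read per the file headers with Feature Extraction 10.5.1.1 (10.5 per the submitters' processing notes). Per the file headers the deposited intensity values are mean spot and median background brightness per channel, not normalized, and the deposited log10 ratios are background-subtracted and dye-normalized. The authors' value table held the same log10 ratios (maximum difference 0), so it was no separate alternative.

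Intensities were corrected by normexp (offset 50) and loess (span 0.3) in limma 3.58.1 under R 4.3.3, with 1639 control spots and outlier spots (0.641% of readings; 1 of a guidance probe) at weight 0. The outlier readings were left out. No spot was saturated. Repeat spots were averaged. Probes needed a call of well above background in 1 channel on 3 or more of the 4 arrays (24941 of 41012; 62 of 90 guidance probes, 68.9% against 60.8%). From 22464 to 28062 probes per array had that call in p75High and from 23044 to 26174 in p75Low. Of several such probes the brightest represented its gene. The mean log2 ratio was tested against 0 with lmFit and eBayes, two-sided, Benjamini-Hochberg over 22185 genes at 0.05, after a check on simulated data. Levels per population are log2 intensities after loess and Aquantile. Symbols were updated through a RefSeq table of GRCr8, used for names alone (10963 probes by accession, 3544 by older symbol, 5160 by symbol, 21345 unmatched and kept as listed).

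Pairing comes from the labels: each ratio is within an array, and the headers place all arrays on 1 slide. Channels of the same array deviated together at r = 0.13, 0.06, 0.07 and 0.26 across genes, against at most 0.05 for different arrays. Across genes, ratios of different arrays correlated at 0.18 to 0.25. Named were, per family, the 5 tested members with the largest absolute mean and the 2 with the smallest unadjusted p. Also named were members whose kept probes differed by over 1, members detected in 1 population alone and any past the threshold. From each partner list 2 genes were named, besides Ngfr, Itgam, Csf1r and Sox10. Members, lists and rules were chosen with earlier results of these data known. Alternatives changed the filter, background correction, normalization, outlier spots, probe rule, pairing and each array in turn.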

Additional observations from a re-analysis of the deposited data

Results flagged for a closer look

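In 40 sets of 4 array values (the 33 guidance genes named by the rule and 7 family or group medians), 4 had 1 array far from the other 3. The flag was set to mark about 1 in 20 sets by chance. That rate does not apply here, because genes were named partly for large absolute means or small p and the medians share genes. Efna4 stood at 4.11 on array 1, with the other arrays from -0.50 to -0.09. Sema3c stood at 4.41 on array 1, with the others from -0.05 to 0.44. Efnb3 stood at 0.17 on array 2, with the others from -1.32 to -1.13. Unc5a stood at 0.37 on array 4, with the others from 0.92 to 0.95.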

How the results depend on the processing

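No guidance gene passed the threshold under any of 13 alternatives, and for the 33 named guidance genes the adjusted p ran from 0.0641 (Sema3e with the scanner's ratios, mean 6.63) to 0.999. Over all genes, 166 passed; the count was 89 with no filter on dim probes, 267 with the scanner's ratios (113 higher, 154 lower) and 308 without the replicate block (channels treated as unpaired). Leaving out 1 array gave 0 to 0, with 1886 to 2387 genes at an unadjusted p under 0.05. Ignoring the pairing changed no call of a guidance gene. Of the partner genes 1 passed without background correction, with the scanner's ratios and without the replicate block.

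Leaving out 1 array, the median was -0.01 to 0.63 for semaphorins, -0.24 to 0.64 for plexins and neuropilins, -0.46 to -0.11 for Eph receptors, -0.20 to 0.14 for Slits and Robos, -0.10 to 0.72 for netrins, Dcc and Unc5 and -0.08 to 0.14 for all guidance genes. With the scanner's ratios the semaphorin median was 0.69 and that of all guidance genes 0.11. Under median centring, which moved the median of all genes to 0.13, the guidance median was 0.19. The ephrin median was -0.07 with no filter, -0.86 with the stricter filter and 0.07 with every probe on its own.

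Of 423 values for named guidance genes, 403 kept their direction. The others belong to 13 genes, none past the threshold. With 1 array left out, the range was -1.24 to 0.94 for Epha1, -2.36 to 0.09 for Ephb2, -0.64 to 0.18 for Epha3, -0.20 to 0.09 for Robo4, -0.72 to 0.14 for Robo1, -0.25 to 1.29 for Efna4, -0.07 to 0.14 for Efna5, -0.40 to 1.30 for Unc5b, 0.00 to 0.72 for Ntn3 and -0.32 to 0.47 for Unc5d. Median centring gave 0.10 for Ephb2, 0.10 for Robo4 and 0.22 for Unc5d, and the scanner's ratios 0.04 for Ephb2 and 0.04 for Unc5d. The median over probes gave 0.04 for Ephb6, 0.11 for Unc5d, -0.51 for Sema4g and 1.29 for Sema6a. Unc5d was 0.06 without background correction. The cause was not tested. The amplification by PCR, the unswapped dyes and the 4 arrays limit every value, and for probes near background a ratio near 0 does not show equal levels.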

Other observations

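Some guidance genes carry another name on the array and fell outside the name rule. Through their RefSeq accession, Epha10 averaged 0.39 ± 0.53, the kept probe of Epha4 0.22 ± 0.65 and Ntn5 0.19 ± 0.62, each above background on all 4 arrays in both populations. A Slit2 probe listed by accession averaged 0.10 ± 0.40 and was above background on 4 arrays in p75High and 3 in p75Low, whereas the probes listed as Slit2 were never above background. Ntn4 was above background on 1 array in p75High, with a ratio of 2.12 there. None of these was past 2-fold in its mean.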
